A study of Rattus norvegicus and Mus musculus with 74 samples.

Results

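The genes described here are Bdnf and Ntf3, which encode the neurotrophins BDNF and NT-3, and Ntrk2, Ntrk3, Ngfr and Sort1, which encode their receptors TrkB, TrkC, p75 and sortilin. Histone marks at these 6 genes were read from merged enriched regions, and the members were all regions whose list of nearby genes named a gene of the 6. That rule gave 48 of the 132934 regions, 30 of 72824 in rat and 18 of 60110 in mouse. In rat there were 2 regions for Bdnf, 4 for Ntf3, 14 for Ntrk2, 5 for Ntrk3, 1 for Ngfr and 4 for Sort1. In mouse there were 2, 3, 8, 1, 1 and 3 in the same order of genes. For each gene, region 1 is the region with the highest mean signal over all libraries of the species.

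Chromatin immunoprecipitation sequencing (ChIP-seq) was run on frozen brain cortex for H3K4me3, a mark of active promoters, H3K9Ac, an acetyl mark found where promoters and enhancers are active, H3K27me3, the mark laid down by Polycomb, and H3K9me3, a mark of heterochromatin. The rats were of the Sprague-Dawley strain and fell into VPA-exposed animals given TAK-418, VPA-exposed animals given vehicle, and healthy controls given vehicle, where VPA is valproate injected before birth. The mice were C57BL/6J and fell into the corresponding groups after a prenatal injection of poly I:C, an artificial RNA duplex used to mimic viral infection. TAK-418 inhibits LSD1, a histone demethylase of H3K4. Each group had 3 libraries per mark, so 72 ChIP libraries were used; no control animals received TAK-418, and the sources used here give neither age nor dose. Nothing in the labels states that each library is a different animal, and p-values therefore measure the spread between libraries alone, part of which may be technical. Cortex holds many cell types, and fewer cells of a type and less of a mark per cell cannot be told apart in these samples.

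Neurotrophins are secreted growth factors that neurons need for survival, outgrowth and synaptic plasticity. BDNF acts through TrkB and NT-3 mainly through TrkC, both receptor tyrosine kinases, while p75 binds all neurotrophins and, together with sortilin, their uncleaved precursors. Bdnf is transcribed from several promoters that are spread along the gene and are used in different cells and after different stimuli, and neuronal activity drives some of them through the factor CREB. In the adult cortex BDNF and TrkB are made by many neurons, TrkB also by astrocytes, and p75 by few cells.

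The RefSeq annotation places the starts of Bdnf at separate sites. RefSeq windows of the 250 bases before a transcription start, on the rat assembly GRCr8, were given for 3 of the 6 genes: 6 for Bdnf, 3 for Ntf3 and 1 for Sort1. The start sites of the 6 Bdnf windows lay 0, 1.2, 2.34, 18.2, 20.2 and 20.2 kb from the first. Windows of the first and the fourth Bdnf start are printed with the first Ntf3 and the Sort1 window, each 5′ to 3′ in the direction of transcription, with motif matches in capitals.
Bdnf start 1 (chr3:116619383-116619632, plus strand): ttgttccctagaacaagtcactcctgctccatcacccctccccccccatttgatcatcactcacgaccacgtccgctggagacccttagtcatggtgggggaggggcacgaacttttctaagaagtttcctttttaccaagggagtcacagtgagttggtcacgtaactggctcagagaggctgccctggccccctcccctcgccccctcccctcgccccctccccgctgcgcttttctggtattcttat
Bdnf start 4 (chr3:116637608-116637857, plus strand): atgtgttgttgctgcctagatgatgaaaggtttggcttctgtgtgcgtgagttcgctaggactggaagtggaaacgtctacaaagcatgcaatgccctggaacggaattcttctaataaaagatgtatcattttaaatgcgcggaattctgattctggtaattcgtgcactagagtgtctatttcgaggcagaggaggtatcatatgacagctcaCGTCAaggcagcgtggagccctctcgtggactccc
Ntf3 start 1 (chr4:160670624-160670873, minus strand): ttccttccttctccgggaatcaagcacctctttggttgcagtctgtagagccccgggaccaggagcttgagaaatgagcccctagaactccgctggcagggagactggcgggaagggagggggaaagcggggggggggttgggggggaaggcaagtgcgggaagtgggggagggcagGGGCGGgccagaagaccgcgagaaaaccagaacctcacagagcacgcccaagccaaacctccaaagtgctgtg
Sort1 start 1 (chr2:198612245-198612494, plus strand): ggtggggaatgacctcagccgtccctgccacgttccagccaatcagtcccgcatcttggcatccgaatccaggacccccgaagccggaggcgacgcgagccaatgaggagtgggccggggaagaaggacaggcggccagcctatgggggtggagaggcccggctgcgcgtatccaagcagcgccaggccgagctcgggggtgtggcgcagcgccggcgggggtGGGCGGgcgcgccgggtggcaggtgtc

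The motifs searched on both strands were the cyclic AMP response element, which CREB binds (CRE, TGACGTCA), its core TGACG, the GC box GGGCGG, the E-box CACGTG, the TATA box TATAAA and the NGFI-A site GCGTGGGCG; a full CRE also counts as a core. The fourth Bdnf window held 1 CRE core, read on the reverse strand 35 bases before the start, and 18.2% of 33469 rat windows held a CRE core. A full CRE stood in 1.59% of windows and in none of the 6 Bdnf windows. The printed Ntf3 and Sort1 windows each held a GC box, which 30.5% of windows held, and so did the third Bdnf window, with 2. The second Bdnf window held a TATA box, 250 bases before its start. Shares for the other motifs were 5.59% for the E-box, 12.9% for the TATA box and 0.478% for the NGFI-A site. The Sort1 window had 25 CG pairs, at percentile 91.4 of all windows, against 9 in the first Bdnf window, 11 in the fourth, 10 in the Ntf3 window and a median of 5. A match describes letters and is no evidence of binding.

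The enriched regions of Bdnf were also split. In the rat table (build rn5) Bdnf had a region at its listed start, chr3:107369400-107377399, from -1.93 to 6.07 kb, and a second one inside the gene, chr3:107387000-107396199, from 15.7 to 24.9 kb. In mouse (build mm10) the region at the start was chr2:109671200-109681199, from -3.5 to 6.5 kb, and the one inside was chr2:109689400-109698399, from 14.7 to 23.7 kb. The 2 rat assemblies differ and no coordinates were converted; only distances within each are set side by side. The region inside the gene ranked first in rat and the region at the start ranked first in mouse. In both species the region at the start listed 2 CpG islands and the region inside the gene 1.

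Libraries differed in overall signal. The summed mean signal over all regions ran from 163762 to 349291 in rat H3K9Ac and from 137187 to 284894 in mouse H3K4me3. In rat H3K9Ac, VPA vehicle library 3 had 211103, far below the other libraries of its group at 319633 and 349291. In mouse H3K27me3, the summed signal of poly I:C vehicle library 3 was 110215, below 211958 and 166958 in its group, and it had 1916 intervals called against 13596 and 10817. In mouse H3K4me3, control library 1 had 284894, above 173858 and 163340 in its group. Marker genes were set beside the tissue label: all 6 neuronal markers were listed in both species, with a median percentile of H3K4me3 in controls of 85.4 in rat and 86.1 in mouse. Of 4 genes of other organs, 3 were listed, with median percentiles of 77.1 in rat and 49.7 in mouse, and no listed marker of either list was at 0. Of 4 striatal markers, 3 were listed, at 82.2 in rat and 81.9 in mouse. These percentiles therefore cannot tell cortex from other brain tissue.

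The 6 genes differed widely in their marks, in nearly the same order in both species. Ntrk2 had the highest mean H3K4me3 and H3K9Ac at its start, Ngfr and Ntf3 had high H3K27me3 with low H3K4me3, and Bdnf was high in both of these marks. The mean signal is an average over the whole region, so a sharp peak counts for less in a long region. In control rats the H3K4me3 level (mean signal per region ± SD, n = 3) was 26.3 ± 4.02 at Ntrk2, 16.7 ± 4.64 and 14.3 ± 2.39 at Bdnf regions 1 and 2, 15.4 ± 3.85 at Ntrk3, 13.1 ± 4.62 at Sort1, 2.29 ± 0.513 at Ntf3 and 1.66 ± 0.242 at Ngfr. Bdnf, Ntrk3 and Sort1 lay within each other's spread, below Ntrk2 and far above Ntf3 and Ngfr. All genes were read in the same libraries, and their order within each library was not tested. H3K27me3 in control rats was highest at Ngfr instead, with 15.3 ± 6.63 at Ngfr, 8.32 ± 3.80 at Bdnf region 1, 7.72 ± 2.79 at Ntf3, 3.09 ± 1.39 at Ntrk2, 2.74 ± 0.856 at Ntrk3 and 1.56 ± 0.377 at Sort1. Ngfr stood at percentile 99.6 of all rat regions for this mark.

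Mouse controls gave nearly the same order. H3K4me3 averaged 26.4 ± 11.1 at Ntrk2, at percentile 99.7, and 14.4 ± 5.80 at Bdnf region 1, 8.86 ± 2.76 at Ntrk3, 7.61 ± 2.89 at Sort1, 2.79 ± 1.07 at Ntf3 and 2.57 ± 0.745 at Ngfr. Neighbours in this order lay within each other's spread, apart from the step between Sort1 and Ntf3. As in rat, this spread includes differences between libraries that all genes share, so it does not test the order. H3K27me3 averaged 9.94 ± 2.54 at Ngfr, 6.69 ± 1.29 at Ntf3 and 6.48 ± 0.604 at Bdnf region 1, against 2.17 ± 0.154 at Sort1. H3K9Ac was highest at Ntrk2 in both species, with control means of 12.4 ± 1.18 in rat and 13.7 ± 5.45 in mouse. H3K9me3 stayed between 1.39 and 2.40 in control means at region 1 of all 6 genes, and no H3K9me3 interval was called at either Bdnf region in any library of either species.

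**Figure D1:**
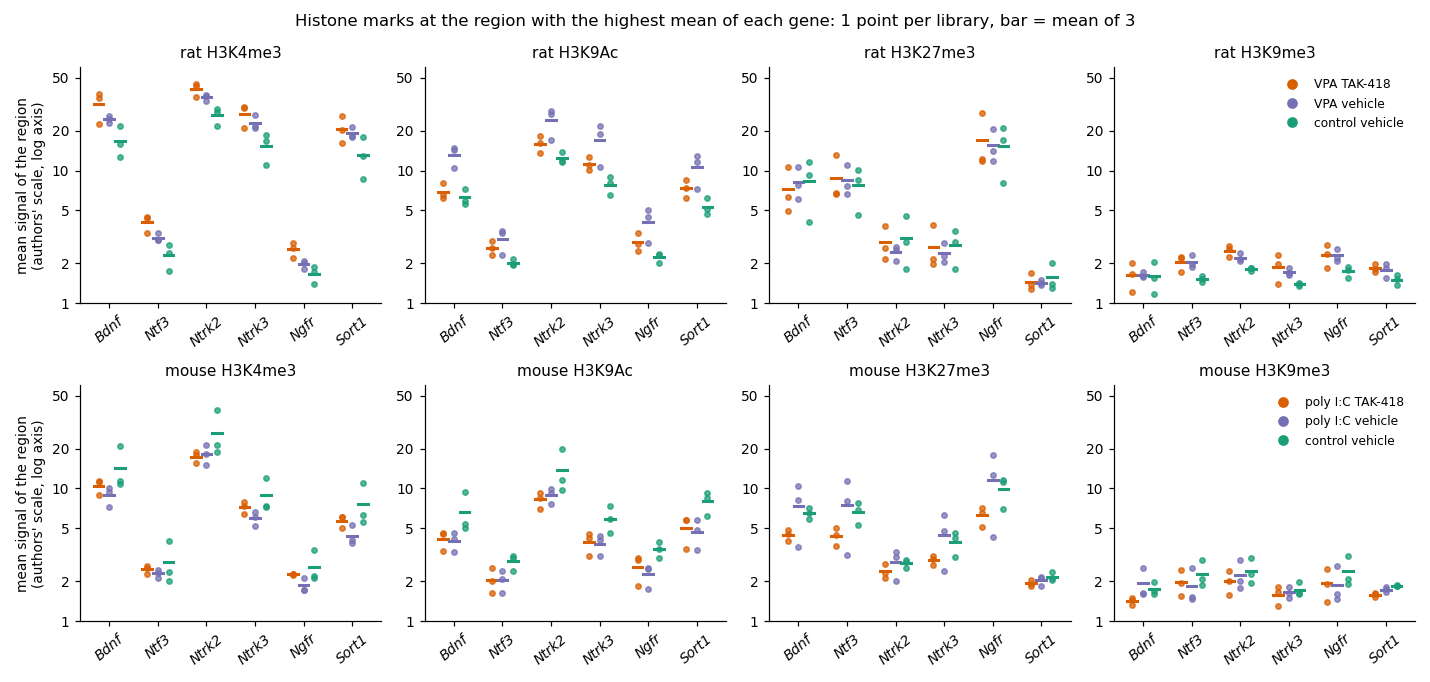
Mean signal of the highest region of each gene (log axis, the authors' scale) for 4 marks in rat and mouse; each point is a library, bars are means of 3, and groups run TAK-418, vehicle, control from left to right. Ntrk2 is highest for H3K4me3 and H3K9Ac, and Ngfr is highest for H3K27me3, in both species.

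Bdnf was among the regions where the active marks and the Polycomb mark were all called. Intervals of H3K4me3, H3K9Ac and H3K27me3 were called together in all 9 libraries of each of these marks at 2603 rat regions, 20.9% of the 12462 with H3K4me3 in all 9, and at 695 mouse regions, 6.22% of 11173. Both Bdnf regions were among them in rat and in mouse. With rat Ngfr they made up 3 of the 8 rat member regions with H3K4me3 in all 9 libraries, and in mouse the Bdnf regions were 2 of 8. The regions of Ngfr and Ntf3 were long, 81.8 and 42.4 kb in rat, and held H3K4me3 maxima well above their means: the highest signal within the rat Ngfr region was 53, 26 and 52 in TAK-418 libraries, 22, 29 and 25 in vehicle libraries and 12, 22 and 24 in controls. Both marks were measured in bulk tissue, so marks on the same nucleosomes and marks in different cells cannot be told apart.

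The groups allow 2 questions of each gene: whether its marks differed between exposed and control animals given vehicle, and whether they differed between exposed animals given TAK-418 and vehicle. At Bdnf region 1, H3K9Ac rose in VPA vehicle rats against controls and fell in TAK-418 against vehicle rats. Inside the gene, at this region, H3K9Ac was 6.24, 8.08 and 6.50 in VPA TAK-418 libraries, 14.2, 14.9 and 10.5 in VPA vehicle libraries and 7.32, 5.86 and 5.63 in controls. Every vehicle library was above every TAK-418 and every control library, while TAK-418 and control libraries overlapped. In VPA vehicle against control rats the log2 change was 0.96 ± 0.25 (SE), a ratio of means of 2.11, with an adjusted p of 0.000811 from limma over all 17679 tested regions. In TAK-418 against vehicle rats it was -0.83 ± 0.25 (SE), a ratio of 0.526, with an adjusted p of 0.0282. In TAK-418 rats against controls it was 0.13, with an adjusted p of 0.649.

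Region 2, at the Bdnf start, had the same pattern with a smaller second step. Its H3K9Ac was 7.88, 7.46 and 6.27 in VPA TAK-418 libraries, 14.6, 14.3 and 8.49 in VPA vehicle libraries and 5.92, 6.38 and 5.95 in controls. All vehicle libraries were again above both other groups. The log2 change was 0.89 in vehicle against control rats, with an adjusted p of 0.00141, and -0.68 in TAK-418 against vehicle rats, with an adjusted p of 0.0589, which missed the threshold of 0.05. The log2 ratio of the 2 Bdnf regions within a library differed between groups by -0.15 to 0.20 over 24 comparisons of mark, species and groups. Exact two-sided permutation p-values ran from 0.3 to 1.0, and 3 libraries against 3 cannot go below 0.1, so no difference could have been called.

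**Figure D2:**
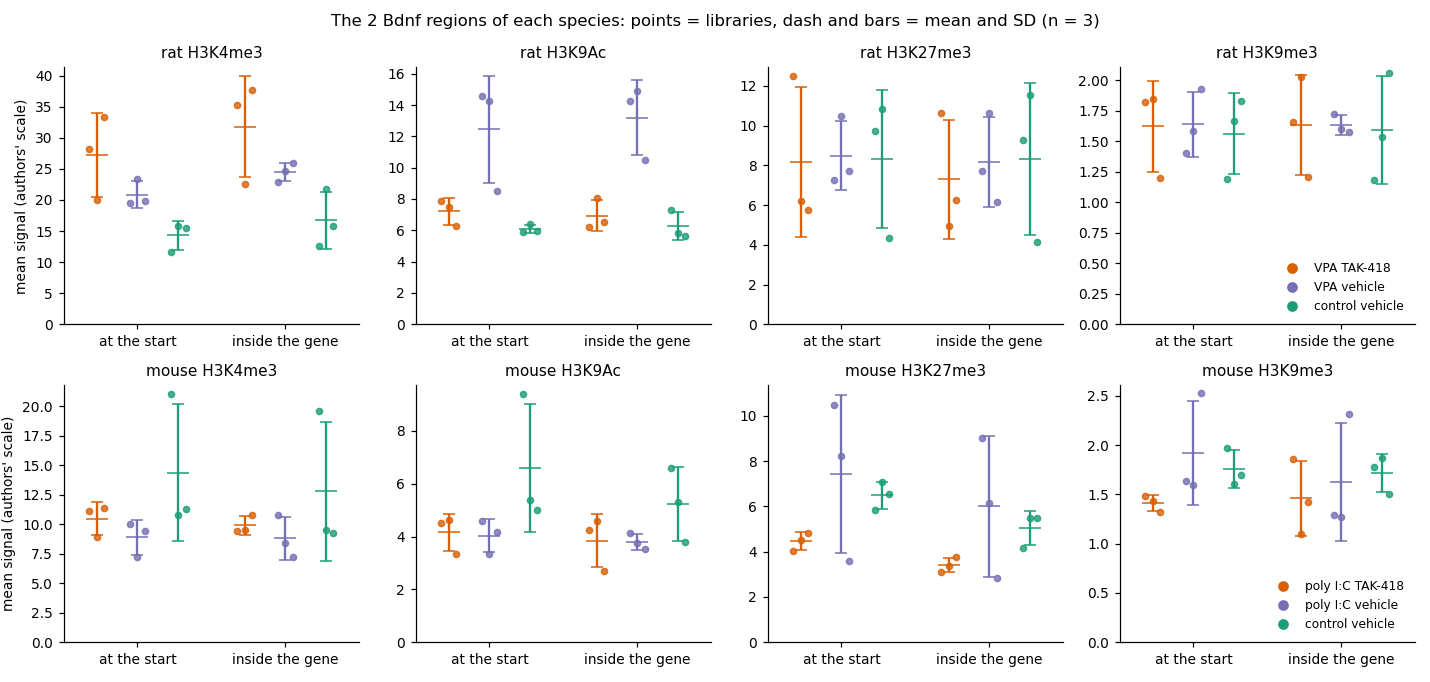
Mean signal at the Bdnf region at the gene's start and at the region inside the gene, by mark and species; points are libraries, dashes and bars are mean and SD of 3, with TAK-418 left, vehicle next and control right. In rat H3K9Ac the 3 vehicle libraries lie above all TAK-418 and control libraries at both regions.

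The rise in VPA vehicle rats extended over most acetylated regions. Of the 19 member regions tested for rat H3K9Ac, 19 were called higher in VPA vehicle than in control rats, where 90.8% of all tested regions were called higher. The groups did not overlap at 19 of 19 members, against 85.8% of all tested regions. The median log2 change was 0.70 over the members and 0.78 over all tested regions, and 8 of the 19 members lay above the median of all tested regions. The changes at the highest regions were 0.98 at Ntrk3, 0.87 at Ntrk2, 0.84 at Sort1, 0.64 at Ngfr and 0.42 at Ntf3. Their limma adjusted p-values were 0.000715, 0.00184, 0.00209, 0.00268 and 0.0207. Relative to the median of all tested regions, Ngfr and Ntf3 turned to -0.13 and -0.36. With the highest signal within a region in place of its mean, the rise was 1.12 at Ngfr and 1.09 at Ntf3. On that measure it was 1.12 at Ntrk2, 1.33 at Ntrk3 and 1.35 at Sort1. Summed H3K9Ac at all 6 listed neuronal markers moved with it, from 40.5 to 53.0 across TAK-418 libraries, from 42.5 to 79.9 across VPA vehicle libraries and from 31.3 to 38.4 across control libraries. The vehicle range was also above the control range for all 5 astrocyte markers (25.6 to 35.0 in TAK-418, 27.2 to 49.2 in vehicle, 21.0 to 24.1 in control), all 6 of the oligodendrocyte lineage (28.4 to 37.5, 30.5 to 56.5, 23.2 to 27.4) and all 5 of microglia (25.0 to 36.8, 28.7 to 56.4, 20.4 to 24.1). It was above at the 3 listed genes of other organs as well (5.86 to 9.74, 6.08 to 10.7, 5.69 to 6.02). The same held for markers of endothelium, striatum and choroid plexus. No listed marker was at 0, and the part of these shifts in the member changes was not tested.

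The fall with TAK-418 was narrower, and Bdnf was at its lower end. With 9.56% of all tested regions called lower in TAK-418 than in vehicle rats, 1 of the 19 members was called, Bdnf region 1. Its change was at percentile 3.96 of all tested regions and at percentile 5.21 of the 13379 tested regions that had H3K4me3 intervals. Among the 19, the groups did not overlap at the 2 Bdnf regions, against 17.2% of all tested regions. The median change was -0.26 over the members and -0.41 over all tested regions. No member was called in TAK-418 against control rats, and neither was any other tested region (0.0%); 8 members passed an unadjusted p of 0.05, and 16 of 19 did not overlap, all higher in TAK-418, against 55.6% of all tested regions.

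Because a shift of all regions enters each of these changes, they were also read relative to the median of the tested regions in each library. On that scale Bdnf region 1 was lower in TAK-418 than in vehicle rats by a log2 change of -0.43 ± 0.098 (SE) with a limma adjusted p of 0.00995, and region 2 by -0.29 with an adjusted p of 0.0270. These were the 2 members called lower, with 17.8% of all tested regions called lower. The 5 members called higher, against 13.7% of all tested regions, were Ntrk2 regions 7, 8, 11 and 13, inside the gene body, and Sort1 region 3, with relative changes from 0.21 to 0.26. On the deposited scale all 19 members fell in this comparison, from -0.83 to -0.14. A relative call of higher here is therefore a smaller fall than that of the median, not a rise. In VPA vehicle against control rats, relative calls were 1 higher, Sort1 region 2 at 0.29, and 1 lower, Ntf3 region 1 at -0.36, against 11.5% and 12.4% of all tested regions. Both were lost without VPA vehicle library 1 or 2 or control library 2 or 3, with adjusted p-values from 0.0719 to 0.104. After quantile normalization no member was called in either comparison, against 3.98% of all tested regions for TAK-418 against vehicle and 0.362% for vehicle against control; Bdnf region 1 then had a change of -0.36 with an unadjusted p of 0.00431 and an adjusted p of 0.0663.

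The call at Bdnf region 1 on the deposited scale depended on most of the 9 libraries. Without 1 library the log2 change stayed between -0.98 and -0.74, and the call held without VPA TAK-418 library 2 or VPA vehicle library 3. Its adjusted p was 0.223 without VPA TAK-418 library 1, 0.206 without library 3 of that group, 0.317 and 0.204 without VPA vehicle libraries 1 and 2, and 0.0525, 0.0671 and 0.0735 without control libraries 1, 2 and 3. It was 0.224 without the interval filter and 0.166 with only the 6 libraries compared. Relative to the median, region 1 was called when any of the 9 was left out, at changes from -0.50 to -0.35. The relative call at region 2 was lost without VPA TAK-418 library 1, 2 or 3 or VPA vehicle library 1, at adjusted p-values of 0.0509, 0.0849, 0.0509 and 0.106. VPA vehicle library 3 had the lowest summed signal of its group. Without it, 19 of 19 members were called lower in TAK-418 than in vehicle rats. In that fit, 14 were called higher in TAK-418 rats than in controls. Here and below, member counts from fits without a library carry no share of all tested regions. Such counts are therefore no result about the members alone.

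**Figure D3:**
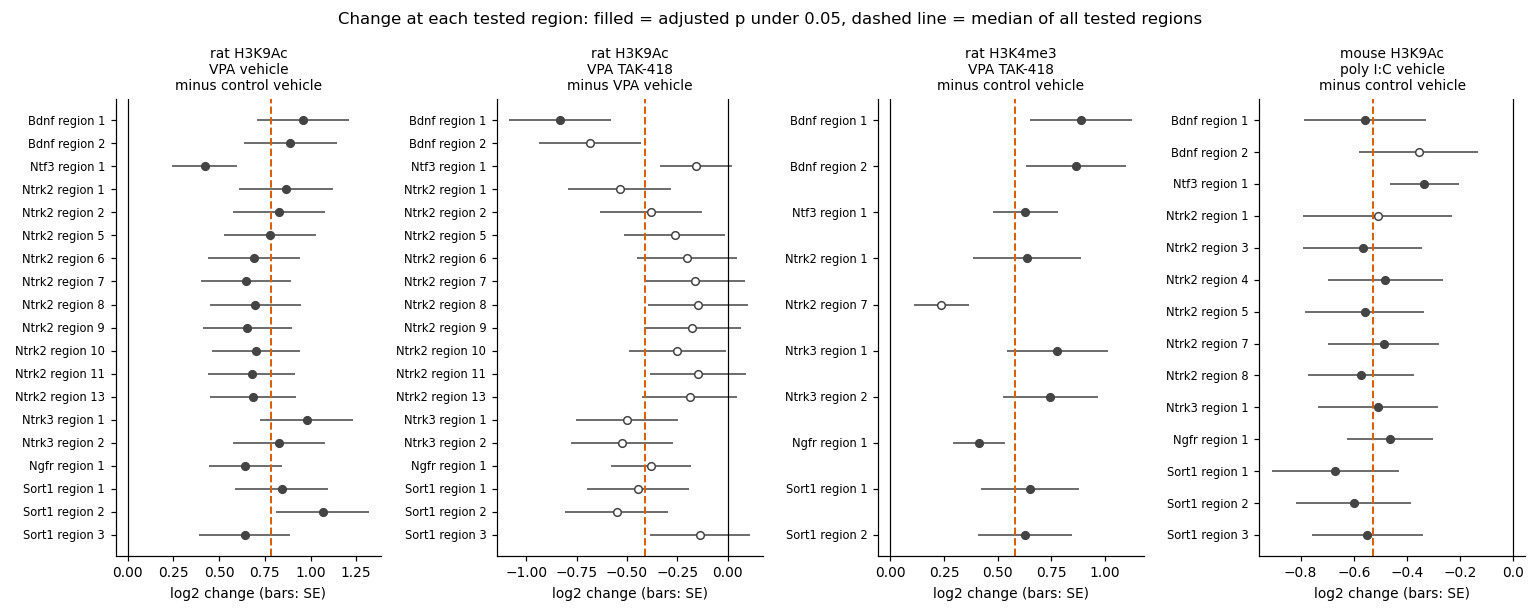
Log2 change with SE at each tested member region in 4 comparisons, named above each panel; filled points have an adjusted p under 0.05 and the dashed line is the median of all tested regions. In rat H3K9Ac, the Bdnf regions lie furthest left of the median of -0.41 in TAK-418 minus vehicle, at -0.83 and -0.68.

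H3K4me3 at Bdnf in rats took another course, highest in TAK-418 animals. Region 1 had 35.2, 22.5 and 37.6 in VPA TAK-418 libraries, 23.0, 24.7 and 25.9 in VPA vehicle libraries and 12.6, 21.7 and 15.8 in controls. TAK-418 and vehicle libraries overlapped, and both groups lay above all controls. The log2 change was 0.89 ± 0.24 (SE) in TAK-418 rats against controls, with a limma adjusted p of 0.00203, 0.56 in vehicle rats against controls with 0.107, and 0.33 in TAK-418 against vehicle rats with 0.703. Region 2 rose by 0.86 in TAK-418 rats against controls, with an adjusted p of 0.00226. Both calls held without any single library. Without the interval filter both had an adjusted p of 0.0947, and relative to the median the changes were 0.27 and 0.25, with 0.244 and 0.250.

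Across the members, 9 of the 10 regions tested for rat H3K4me3 were called higher in TAK-418 rats than in controls, against 72.8% of all tested regions. The groups did not overlap at 9 of 10, against 50.8% of all tested regions, and the median change was 0.64, beside 0.58 over all tested regions, with 8 of 10 members above it. No member was called relative to the median, after quantile normalization or without the interval filter. Summed H3K4me3 at neuronal markers ran from 65.8 to 89.4 across TAK-418 libraries, from 64.4 to 81.1 across vehicle libraries and from 43.4 to 54.5 across controls. At astrocyte markers it was 45.0 to 58.7 in TAK-418, 40.8 to 51.6 in vehicle and 29.5 to 36.8 in controls, at markers of the oligodendrocyte lineage 48.7 to 71.6, 50.4 to 54.6 and 33.8 to 49.8, and at microglial markers 42.2 to 56.1, 44.6 to 45.2 and 30.3 to 40.8. Their part in the member changes was not tested. In vehicle against control rats 0 of 10 were called, against 1.64% of all tested regions, with 7 at an unadjusted p under 0.05, and the groups did not overlap at 8, all higher in vehicle rats, where 50.8% of all tested regions did the same. In TAK-418 against vehicle rats 0 of 10 were called, against 0.224%, with 1 at an unadjusted p under 0.05, and 3 did not overlap, against 8.47%. Without VPA TAK-418 library 1, or without control library 1, 3 of the 10 were called higher in TAK-418 rats than in controls: both Bdnf regions and Ntf3. Without VPA TAK-418 library 2, or without control library 2, 3 and 7 members were called higher in vehicle rats than in controls.

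H3K27me3 at Bdnf did not follow the groups in rats. At region 1 it was 10.7, 4.96 and 6.27 in VPA TAK-418 libraries, 7.72, 10.6 and 6.13 in VPA vehicle libraries and 9.28, 11.5 and 4.12 in controls, so the groups overlapped throughout. None of the 11 tested members passed in any of the 3 comparisons, even at an unadjusted p of 0.05, and neither did any of the 15480 tested regions after adjustment (0.0%).

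In mice, H3K9Ac at Bdnf region 1 fell in poly I:C vehicle animals against controls. Region 1, at the start, had 4.50, 4.64 and 3.36 in poly I:C TAK-418 libraries, 4.58, 3.34 and 4.17 in poly I:C vehicle libraries and 9.39, 5.40 and 5.02 in controls. Each poly I:C library was below each control. The log2 change was -0.56 in vehicle mice against controls, with a limma adjusted p of 0.0353, and -0.52 in TAK-418 mice against controls, with 0.0559. At region 2 the value was -0.35 in vehicle mice against controls, with an adjusted p of 0.126. The call at region 1 was lost without control library 1 or 2, poly I:C vehicle library 2 or 3 or poly I:C TAK-418 library 1 or 2, with adjusted p-values from 0.0524 to 0.234; without control library 1 the change was -0.31. The change was -0.026 relative to the median, and the adjusted p was 0.103 without the interval filter and 0.360 with the highest signal.

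Acetylation fell across most member genes in the poly I:C vehicle mice. Of 14 tested regions, 12 were called lower than in controls, against 64.0% of all tested regions, and 9 did not overlap, against 70.5%. The median change was -0.53 for the members and for all tested regions alike, with 7 of 14 members above it. The fall was -0.67 at Sort1, -0.51 at Ntrk3, -0.46 at Ngfr and -0.33 at Ntf3, with adjusted p-values of 0.0320, 0.0434, 0.0320 and 0.0324, while the start of Ntrk2 had -0.51 with 0.0842. No member was called relative to the median, where Ntrk3, Ngfr and Ntf3 turned to 0.023, 0.069 and 0.20. Summed H3K9Ac at the neuronal markers ran from 23.4 to 30.6 across TAK-418, from 21.8 to 31.5 across vehicle and from 32.4 to 56.5 across control libraries. The vehicle range was below the control range too for the oligodendrocyte lineage (17.8 to 26.4 in TAK-418, 17.6 to 26.3 in vehicle, 29.4 to 44.1 in control) and microglia (12.9 to 20.8, 13.1 to 19.4, 21.3 to 31.5), while astrocyte markers overlapped (12.5 to 17.3, 11.7 to 18.4, 17.9 to 27.1). It was below at the 3 listed genes of other organs as well (4.21 to 5.93, 4.35 to 6.05, 6.73 to 7.75). The part of these shifts in the member changes was not tested. None was called in TAK-418 against control mice (9 at an unadjusted p under 0.05, smallest adjusted p 0.0559), where 8 of 14 did not overlap against 68.1% of all tested regions, nor in TAK-418 against vehicle mice, and no tested region was in these 2 comparisons (0.0%). The 12 calls became 0 without control library 1 or 2, poly I:C vehicle library 2 or 3, or poly I:C TAK-418 library 2, and 6 without poly I:C TAK-418 library 1. Without control library 3, and without poly I:C vehicle library 2, the TAK-418 against control comparison called 14 and 7 members. The shares of all tested regions in these fits are not given.

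H3K4me3 and H3K27me3 gave no member call in mice. H3K4me3 at Bdnf region 1 was 11.1, 8.88 and 11.4 in TAK-418 libraries, 10.0, 7.23 and 9.46 in vehicle libraries and 21.1, 10.7 and 11.3 in controls. Control library 1 was far above all others, and each vehicle library was below each control. Over the 3 comparisons, 0 of 8 members were called, against 0.00804% of all tested regions for TAK-418 against control and 0.0% for the others; 2 passed an unadjusted p of 0.05, in vehicle against control. Without control library 3, 4 of 8 were called lower in vehicle mice than in controls. The share of all tested regions in that fit is not given. H3K27me3 at Bdnf region 1 was 4.03, 4.51 and 4.84 in TAK-418 libraries, 10.5, 8.23 and 3.59 in vehicle libraries and 5.86, 7.07 and 6.53 in controls. The vehicle libraries spanned both other groups, and vehicle library 3, with the low summed signal, was below every TAK-418 library. Each TAK-418 library was below each control, with a limma adjusted p of 0.401. None of the 5 tested members was called by limma in any comparison (0.0% of all tested regions), with 0 at an unadjusted p under 0.05. Without vehicle library 3 all 5 were called lower in TAK-418 than in vehicle mice. That count too carries no share of all tested regions.

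Ntf3, the other ligand, had intervals of H3K27me3 at its first region in both species, and further along mainly in rat. Rat region 4 is listed as downstream of the gene. Its first region, chr4:225676400-225718799 in rat and chr6:126137200-126173999 in mouse, spans the start, and the other 3 rat regions and 2 mouse regions lie further along, with intervals of H3K27me3 alone, in 6, 9 and 6 of 9 libraries in rat and in 1 of 9 at each in mouse. In rat the H3K27me3 was 13.0, 6.64 and 6.80 in TAK-418 libraries, 7.65, 11.0 and 6.64 in vehicle libraries and 8.51, 10.0 and 4.62 in controls, with overlap of all groups. H3K4me3 in the rat region was 4.44, 3.40 and 4.36 in TAK-418 libraries, 3.01, 2.97 and 3.35 in vehicle libraries and 1.74, 2.76 and 2.38 in controls. The groups stood apart in that order without overlap. The rise of 0.63 in TAK-418 rats against controls had an adjusted p of 0.000766 in limma, the smallest among the members for this mark, and held without any single library; relative to the median the change was 0.015, with 0.959, and without the interval filter the adjusted p was 0.0947. The H3K9Ac rise of 0.42 in vehicle rats was lost without VPA vehicle library 1 or 2 or control library 2 or 3, with adjusted p-values from 0.0663 to 0.107, and the relative change of -0.36 had the opposite sign and was lost without the same libraries.

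Ntrk2 had a strongly marked promoter region and acetylated regions far along its body. Its promoter region was chr17:8445800-8467599 in rat, from -3.09 to 18.7 kb, and chr13:58801200-58821399 in mouse, from -5.4 to 14.8 kb. H3K9Ac at the rat promoter was 16.0, 18.1 and 13.5 in TAK-418 libraries, 26.6, 28.1 and 16.9 in vehicle libraries and 13.7, 11.6 and 11.8 in controls. Vehicle libraries were above all controls, and vehicle library 3 overlapped the TAK-418 group. H3K4me3 there was 44.8, 35.8 and 43.4 in TAK-418 libraries, 33.6, 36.7 and 37.0 in vehicle libraries and 21.8, 29.4 and 27.9 in controls, and the change of 0.64 in TAK-418 rats against controls had an adjusted p of 0.0220. That call was lost without VPA TAK-418 library 1 or 3 or control library 1 or 3, with adjusted p-values from 0.0539 to 0.098.

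Beyond the promoter, 9 rat regions inside Ntrk2, between 20.3 and 301 kb from the start, passed the interval filter for H3K9Ac. Their means ran from 4.12 to 6.08 in TAK-418 rats, from 4.93 to 8.45 in vehicle rats and from 2.61 to 4.18 in controls, all 9 were called higher in vehicle rats than in controls, where 90.8% of all tested regions were, and none was called in TAK-418 against vehicle rats, where 9.56% were called lower. At the same regions H3K4me3 averaged between 1.33 and 2.19 over all 9 libraries. On the deposited scale H3K9Ac fell at every tested member region in TAK-418 against vehicle rats. Relative to the median, regions 7, 8, 11 and 13 were called higher, which here is a smaller fall than that of the median. The promoter changed by -0.14 on the relative scale, with a limma adjusted p of 0.0993. Regions 7, 8 and 11 lost the relative call without VPA TAK-418 library 1 or 3 or VPA vehicle library 1. Region 7 also lost it without VPA vehicle library 2. The limma adjusted p-values were then from 0.0503 to 0.109. Region 13 kept it only without VPA vehicle library 3 or control library 1, and Sort1 region 3 lost it without VPA TAK-418 library 1 or VPA vehicle library 1.

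**Figure D4:**
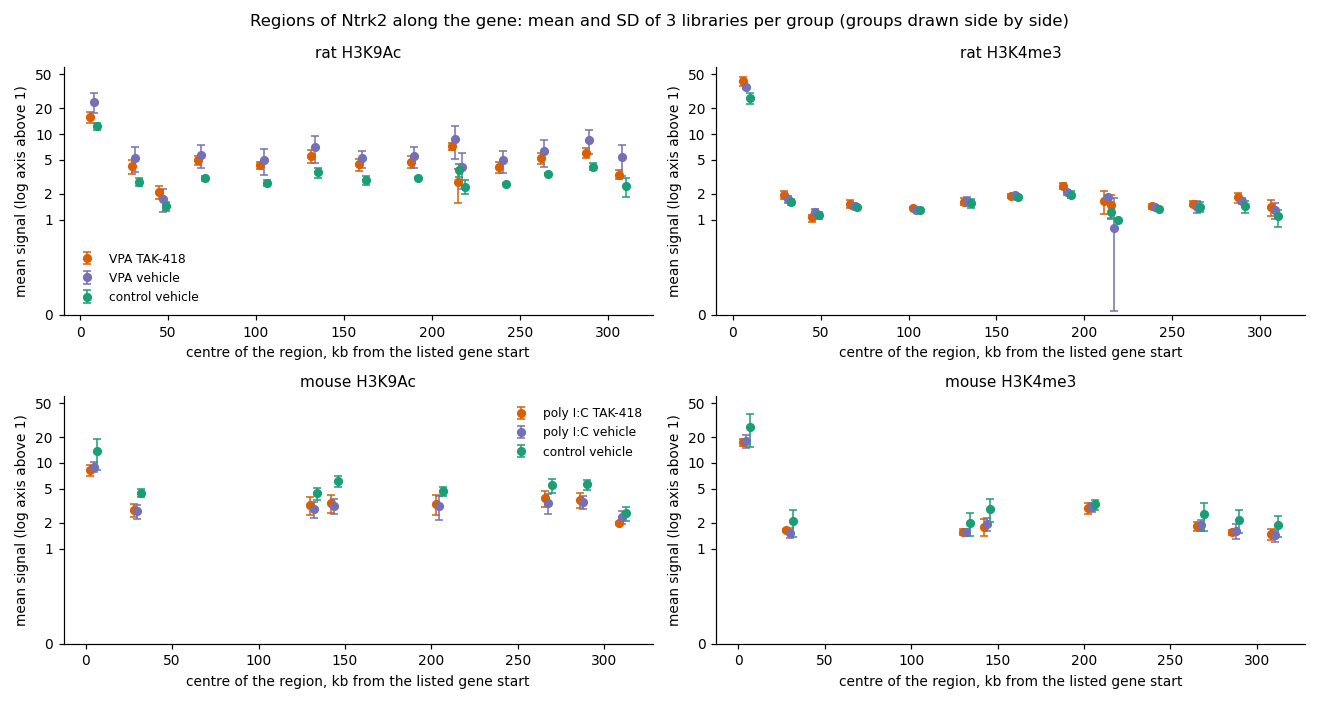
H3K9Ac and H3K4me3 at the regions of Ntrk2 against the distance of each region's centre from the listed start (kb); points and bars are mean and SD of 3 libraries per group, drawn side by side with TAK-418 first, and the signal axis is logarithmic above 1; the long bar at 217 kb is a region with signal 0 in a vehicle library. H3K4me3 is high at the promoter, where control rats average 26.3, and H3K9Ac continues along the gene. Inside the gene, H3K4me3 intervals were called in all 9 libraries at mouse region 4, at 204 kb, with a mean of 3.11. At rat region 7, at 190 kb, they were called in 4 libraries.

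Ntrk3, at its start, lay near Bdnf in H3K4me3 in rat, and below Bdnf in H3K27me3 in both species. In mouse, mean H3K4me3 over all libraries of the mark was 7.35 at Ntrk3 and 11.2 at Bdnf region 1. In rat a pair of neighbouring regions flanked its start, chr1:141225600-141239999 and chr1:141240800-141261599. H3K9Ac at the first was 11.1, 12.7 and 10.1 in TAK-418 libraries, 18.7, 21.6 and 10.6 in vehicle libraries and 8.99, 6.51 and 8.04 in controls. Vehicle library 3 lay within the TAK-418 range, and TAK-418 libraries were above all controls. H3K4me3 was 30.1, 20.9 and 29.6 in TAK-418 libraries, 21.9, 26.2 and 20.8 in vehicle libraries and 11.0, 18.4 and 16.7 in controls, and rose by 0.78 in TAK-418 rats against controls, with a limma adjusted p of 0.00496. The call was lost without VPA TAK-418 library 1, at 0.0600, or control library 1, at 0.0676. The mouse region, chr7:78562000-78614599, also lists Gm9885 and E430016F16Rik.

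Rat H3K9me3 was higher against controls over many tested regions, with a few ligand and receptor regions of low signal among those called. All 6 tested members had a positive change in both comparisons with controls. In vehicle against control rats 2 of 6 tested members were called higher, against 56.2% of all tested regions: Ntf3 region 1, at 2.04 ± 0.225 in vehicle rats and 1.53 ± 0.0682 in controls (log2 change 0.26), and Ntrk3 region 5, at 3.26 ± 0.586 and 2.05 ± 0.342 (0.48). In TAK-418 rats against controls 3 of 6 were called higher, these 2 and Ntrk2 region 8, against 39.5%. Of the 6 members, 0 lay above the median of all tested regions in the first comparison and 1 in the second, and none was called relative to it; Ntf3 turned to -0.23 and -0.21. In TAK-418 against vehicle rats 0 were called, with 0 at an unadjusted p under 0.05. The calls were lost without most single libraries: 0 of 6 passed in vehicle against control rats without VPA vehicle library 1 or 2 or any control library, 1 without VPA TAK-418 library 2 or VPA vehicle library 3, and 4 without VPA TAK-418 library 1. In TAK-418 rats against controls 0 passed without VPA TAK-418 library 1, VPA vehicle library 1 or 3 or any control library, and 1 without VPA TAK-418 library 2 (2 without VPA vehicle library 2). No mouse member was called for H3K9me3, with 0 at an unadjusted p under 0.05 (0.0% of all tested regions).

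Ngfr, which encodes p75, carried the most H3K27me3 of the 6 genes. Its single region was chr10:83179600-83261399 in rat, from -44.8 to 37 kb, and chr11:95550600-95604799 in mouse. Rat H3K27me3 was 27.1, 11.8 and 12.2 in TAK-418 libraries, 14.2, 20.7 and 11.9 in vehicle libraries and 16.9, 21.0 and 8.00 in controls. The groups overlapped, and the high library of each group also had the highest summed H3K27me3 signal of its group. Rat H3K4me3 was 2.84, 2.20 and 2.60 in TAK-418 libraries, 1.81, 2.01 and 2.09 in vehicle libraries and 1.40, 1.88 and 1.72 in controls. The 0.41 rise in TAK-418 rats against controls had an adjusted p of 0.00464, which became 0.0589 without VPA TAK-418 library 1 and 0.0656 without control library 1; relative to the median its sign turned, at -0.20. Mouse H3K27me3 was 5.09, 6.58 and 7.12 in TAK-418 libraries, 18.0, 12.5 and 4.27 in vehicle libraries and 7.01, 11.2 and 11.6 in controls, with vehicle library 3 the lowest of the 9.

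Sort1, which encodes sortilin, had H3K4me3 and H3K9Ac in all libraries and the lowest H3K27me3 of the 6 genes. Its first region also lists the proteasome gene Psma5 in both species, so the signal cannot be assigned to Sort1 alone. In rat, chr2:230532400-230558999, H3K9Ac was 7.39, 8.49 and 6.25 in TAK-418 libraries, 11.6, 13.0 and 7.30 in vehicle libraries and 6.22, 4.71 and 5.13 in controls. Vehicle libraries were above all controls and overlapped TAK-418. H3K4me3 rose by 0.65 in TAK-418 rats against controls, with a limma adjusted p of 0.0121, and this became 0.118 without VPA TAK-418 library 1 and 0.144 without control library 1, where the change was 0.40; relative to the median it was 0.038. In mouse, chr3:108276200-108315799, H3K9Ac was 5.82, 5.80 and 3.52 in TAK-418 libraries, 5.75, 3.46 and 4.83 in vehicle libraries and 9.31, 8.47 and 6.24 in controls, each poly I:C library below each control. Rat Sort1 region 2 lists 7 genes, among them Celsr2 and Sars.

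The wider neurotrophin pathway was read from a list of other genes. This list of 65 genes, from ligands and their proteases to Trk adaptors and factors that act on Bdnf, had 62 listed in rat and 61 in mouse, each read at its highest region. For rat H3K9Ac, 60 of 61 tested were called higher in VPA vehicle than in control rats, against 90.8% of all tested regions, with a median change of 0.95 beside 0.78 over all tested regions. Relative to the median 20 were called higher and 1 lower, against 11.5% and 12.4%. After quantile normalization 0 were called in this comparison, against 0.362%. Shares here and below are those of all tested regions, whereas each list gene was read at its highest region. No like set of regions was compared. In TAK-418 against vehicle rats 8 of 61 were called lower, against 9.56%, with a median of -0.59 beside -0.41. Relative to the median, 31 were called lower and 2 higher in TAK-418 against vehicle rats, against 17.8% and 13.7% of all tested regions, and 2 were called after quantile normalization, against 3.98%. Among the 8 were Rps6ka3, a kinase downstream of ERK, at 14.8 ± 3.60 in TAK-418 and 31.0 ± 6.22 in vehicle rats (log2 change -1.02, limma adjusted p 0.0102), and Sorcs3, a relative of sortilin, at -0.83 (0.0282). In vehicle against control rats the smallest adjusted p-values were those of Akt1 at 1.19, Crtc1, a coactivator of CREB, at 1.18 and the ERK-activating kinase Map2k2 at 1.17, whose regions list 5, 10 and 13 genes.

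For rat H3K4me3, 51 of 59 list genes were called higher in TAK-418 rats than in controls, against 72.8% of all tested regions, with a median of 0.66 beside 0.58, and 0 relative to the median. Ngfrap1, a p75 partner, had 28.2 ± 9.42 in TAK-418 rats and 14.2 ± 1.90 in controls, a log2 change of 0.89 with a limma adjusted p of 0.00179, and Sorcs3 had 43.6 ± 10.8 in TAK-418 rats and 22.7 ± 8.42 in controls, a change of 0.95 with 0.00187. In VPA vehicle rats against controls 1 of 59 was called, against 1.64%. In mouse H3K9Ac, 49 of 59 were called lower in poly I:C vehicle mice than in controls, against 64.0% of all tested regions, with a median of -0.61 beside -0.53, and 0 relative to the median; Akt1 and the Bdnf regulator Arnt2 had -0.86 and -0.66, each with an adjusted p of 0.0320. For rat H3K9me3, Shc3, a Trk adaptor, was the 1 of 10 called higher in vehicle rats than in controls, where 56.2% of all tested regions were; its change was 0.45 with 0.0402, and -0.048 relative to the median. The list had no call in the other comparisons.

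Across the 36 ChIP libraries of each species, the regions whose profile was most like Bdnf region 1 had a mean H3K27me3 from 6.58 to 13.8 in rat and from 4.03 to 5.14 in mouse, beside 7.92 and 6.13 at Bdnf. In rat, among 33873 regions that list a gene, Pearson's r of the log2 signal, each library centred on its median, ran from 0.9954 to 0.9965 for Clic4, Cdk6, Cd24, Arhgef26 and Runx2, against 0.993 for the other Bdnf region and a median of 0.377. In mouse, among 31123 regions, it was 0.991 for Grm8, Jag1, Abtb2, Ttc28 and the region listing Six4 and Mnat1, against 0.984 for the other Bdnf region and a median of 0.442. The values describe these libraries, which share 4 marks with very different levels, and carry no test.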

How the data were processed

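ChIP-seq of 4 histone marks was analysed in 72 libraries of cortex from 2 species, 9 per mark and species in 3 groups of 3; 2 pooled inputs were not used. The aligner was BWA 0.7.12, and the builds were rn5 for rat and mm10 for mouse, per the submitters' processing notes. For every merged region the deposited values of a library are its mean signal, its maximum signal and a 1 or 0 for the presence of a called interval, as computed by the authors. The peak caller, bin width and scaling of the signal between libraries are not stated, and depth is unknown, so no counting interval is given and precision rests on the spread of 3 libraries.

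The mean signal was tested as log2(mean signal + 1) with limma 3.58.1 (R 4.3.3; trend and robust variance moderation), in one fit per mark and species over all 9 libraries without covariates. Regions with an interval in at least 3 of 9 libraries were tested, and p-values were adjusted by Benjamini-Hochberg within each comparison at a threshold of 0.05. A log2 change on this scale understates changes of low signal. "Relative" values subtract from each library the median of its tested regions, an alternative chosen after seeing the data. Groups that do not overlap are those in which every library of one is above every library of the other. TAK-418 against vehicle and vehicle against control share the vehicle libraries, and the other pairs share a group likewise. Levels, overlaps and exact permutation tests were computed with Python 3.11.15, pandas 2.3.3, numpy 2.4.6 and scipy 1.17.1, and the fits were tested on simulated data. The simulated libraries had no shift shared by all regions, so the simulation does not cover calls made under such shifts.

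All 6 genes are described at region 1. Their other regions enter the counts of members, and only some of them are described singly. Of the pathway list, up to 3 genes per comparison and direction with the smallest adjusted p are named, apart from some that are not reported here, and 5 regions per species by likeness to Bdnf. The members and lists were chosen with earlier results of these data known. Replicate numbers were not treated as pairs: in 1 of 24 pairs of groups did every same-numbered correlation exceed 0.1 (range -0.601 to 0.616).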

Additional observations from a re-analysis of the deposited data

How the results depend on the processing

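Counts of member regions called by limma depended on scaling. For rat H3K4me3 in TAK-418 against control rats, 9 calls became 0 relative to the median of tested regions, 0 with quantile normalization and 0 without the interval filter. For rat H3K9Ac in vehicle against control rats, 19 became 2 relative to that median and 0 with quantile normalization. In TAK-418 against vehicle rats, 1 became 7 relative to that median, 7 with centring on the median of all regions, 6 with the highest signal, and 0 with quantile normalization, without the filter and with only the 6 libraries compared, which gave 14 in place of 0 in TAK-418 against control rats. For rat H3K9me3 in vehicle against control rats, 2 became 0 under either centring, quantile normalization or no filter, and 4 with the 6 libraries; in TAK-418 against control rats, 3 became 0 under either centring, quantile normalization or the 6 libraries, and 1 without the filter. For mouse H3K9Ac in vehicle against control mice, 12 became 0 with the highest signal, relative to the median, without the filter and with quantile normalization, and 4 with centring on all regions. The cause of these shifts was not tested.

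With a replicate block, the rat H3K9Ac count in TAK-418 against vehicle rats was 6, the rat H3K9me3 counts were 0 and 0, and the mouse H3K9Ac count in TAK-418 against control mice was 11; the block moved no other count of member regions by over 1.5 times.

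Leaving out each library gave 3 to 10 calls for rat H3K4me3 in TAK-418 against control rats (0 to 1 relative), 0 to 7 in vehicle against control, 0 to 19 for rat H3K9Ac in TAK-418 against vehicle (1 to 10 relative), 0 to 14 in TAK-418 against control, 14 to 19 in vehicle against control (0 to 3 relative), and 0 to 4 in both rat H3K9me3 comparisons with controls. In mice it gave 0 to 14 for H3K9Ac in both comparisons with controls, 0 to 5 for H3K27me3 in TAK-418 against vehicle (0 to 1 relative), 0 to 4 for H3K4me3 in vehicle against control and 0 to 1, relative, in TAK-418 against vehicle. These ranges carry no share of all tested regions.

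Signs turned at single regions. In rat H3K4me3, TAK-418 against control, Ngfr had -0.20 relative to the median and Ntrk2 -0.0032 with quantile normalization. In rat H3K9Ac, vehicle against control, Ngfr had -0.13 and Ntf3 -0.36 relative to the median (-0.45, -0.38, -0.36, -0.33, -0.32 or -0.29 without single libraries), and Ntf3 -0.029 and Ntrk2 -0.081 with quantile normalization. In rat H3K9me3, Ntf3 had -0.062, -0.23 and -0.11 in vehicle against control, and -0.087, -0.21 and -0.10 in TAK-418 against control, with centring on all regions, relative to the tested regions and with quantile normalization. In mouse H3K9Ac, vehicle against control, Ngfr had 0.069, Ntf3 0.20 and Ntrk3 0.023 relative to the median, and Ntrk3 0.019 with quantile normalization. A pseudocount of 0.5 turned no sign and ended no call among the region values described.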
